A study of Mus musculus with 3 samples.

Results

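Glucocorticoid-responsive genes were followed through the blood cells of young and old mice: the receptor gene Nr3c1 and 7 genes that the hormone-bound receptor is known to induce, Fkbp5, Tsc22d3, Per1, Klf9, Ddit4, Txnip and Sgk1. They were found by gene symbol and are 8 of the 32285 genes counted in each library. The set was chosen by the levels of the aged against the young library, where Ddit4 had one of the larger falls, so the values of that comparison are a description here. Peripheral blood mononuclear cells (PBMCs) came from 8-week-old mice (young), 16-month-old mice (aged) and 16-month-old mice that received glycyrrhizic acid, a triterpenoid glycoside of licorice root, for 1 month (aged-GA). By the methods of the study the mice were female C57BL/6 mice, glycyrrhizic acid was injected into the tail vein every other day, and a control group received phosphate-buffered saline; whether the 8-week-old mice did was not given in the sources used here. Each group is 1 library made with a droplet kit that counts the 3′ ends of transcripts. Blood was taken from several mice of each group, and how their cells were combined into the 1 library was not given in the sources used here. No second library of a group could separate age or treatment from the library itself.

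Glucocorticoids enter the cell and bind the receptor encoded by Nr3c1, which waits in the cytoplasm with heat shock proteins and immunophilins, moves to the nucleus and binds DNA at paired half-sites. In lymphocytes the hormone slows growth and at high levels leads to apoptosis, and in the blood its level follows the time of day and stress. The set holds its own brakes: Fkbp5 encodes an immunophilin that lowers the affinity of the receptor for the hormone, and Tsc22d3 encodes GILZ, which restrains NF-κB and AP-1. Several members also answer to other inputs, Per1 to the circadian clock, Ddit4 to hypoxia and amino acid shortage, and Txnip to glucose. A product of glycyrrhizic acid inhibits the dehydrogenases that interconvert active and inactive glucocorticoids.

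Promoters of the members were searched for the letters of the receptor element and of elements for other inputs. Sequences were taken from RefSeq on GRCm38.p6, and 15 start sites of 7 of the 8 genes were used. No start of Nr3c1 was used. The 250 bases before each start were searched on both strands, as were the same 250 bases of all 32851 start sites in the table. The full receptor element, the half-site AGAACA, any 3 bases and the half-site TGTTCT on the same strand, was found before 1 start of Sgk1, at chr10:21993701-21993715, beginning 189 bases before the start, and in 3 windows of the table (0.00913%). This window is shown because it alone held the full element. Capitals mark the element, which contains both half-sites, and an E-box CACGTG that overlaps a further half-site. It lies on the plus strand at chr10:21993640-21993889.
Sgk1 promoter: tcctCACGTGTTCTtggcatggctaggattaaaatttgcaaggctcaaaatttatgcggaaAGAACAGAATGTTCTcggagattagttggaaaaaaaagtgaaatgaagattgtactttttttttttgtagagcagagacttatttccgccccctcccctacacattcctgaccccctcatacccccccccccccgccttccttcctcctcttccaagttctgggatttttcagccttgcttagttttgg

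The half-site AGAACA stood before 4 of the 15 starts, 3 of Sgk1 and 1 of Tsc22d3, and in 16.1% of all windows. The E-box CACGTG, the letters that the clock proteins CLOCK and BMAL1 bind, stood before 3 starts, 1 each of Per1, Fkbp5 and Sgk1, against 6.02% of all windows. The cAMP response element TGACGTCA was found before none of the 15 starts and in 1.55% of all windows. CACGAG, the form of the carbohydrate response element repeat that Txnip itself carries, occurred in 5.37% of all windows. Among the members it stood only before Txnip, where 2 copies lie 85 and 74 bases before the start. As these are the letters of the Txnip repeat, the choice of letters fixed that match. The windows below show the Tsc22d3 half-site (minus strand, chrX:140600690-140600719), the E-boxes of Per1 (plus strand, chr11:69098771-69098800) and Fkbp5 (minus strand, chr17:28486301-28486330), and the promoter of Txnip with its pair of repeats (plus strand, chr3:96557707-96557956), with each match in capitals. None of the motifs was found before Ddit4 or Klf9, and 150 bases that end short of the first annotated Ddit4 exon are shown for comparison (minus strand, chr10:59951871-59952020). A match to letters is a description and not evidence of binding.
Tsc22d3 half-site: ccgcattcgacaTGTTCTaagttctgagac
Per1 E-box: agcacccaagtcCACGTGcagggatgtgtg
Fkbp5 E-box: gcaagggccagaCACGTGggcagcggtgaa
Txnip promoter: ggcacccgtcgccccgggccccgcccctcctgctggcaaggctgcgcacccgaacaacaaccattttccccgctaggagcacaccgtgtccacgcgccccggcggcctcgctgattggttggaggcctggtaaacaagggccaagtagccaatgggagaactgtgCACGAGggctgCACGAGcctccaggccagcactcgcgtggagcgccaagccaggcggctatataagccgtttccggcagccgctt
Ddit4 promoter: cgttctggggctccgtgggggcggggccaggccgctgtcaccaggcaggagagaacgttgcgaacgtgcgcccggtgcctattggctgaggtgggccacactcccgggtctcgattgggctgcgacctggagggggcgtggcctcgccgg

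Cells were assigned by marker genes to B, T, NK and myeloid classes, at least 2 markers of the class and at most 1 of any other being required. This gave 2287 B, 5289 T, 320 NK and 69 myeloid cells in young, 4334, 2134, 268 and 2174 in aged, and 5666, 3416, 265 and 916 in aged-GA mice. The 69 myeloid cells of the young library set the limit for that class: 47 of them were nonclassical monocytes, 12 were neutrophils and 1 was a classical monocyte, against 433, 876 and 449 in aged mice. The libraries kept 8851, 10238 and 12648 cells after filtering, with 48249945, 53770440 and 75832322 unique molecular identifiers (UMIs, one for each captured transcript). They also differed beyond their labels. In the order young, aged, aged-GA, median mitochondrial shares of T cells were 5.01%, 2.89% and 4.11%, and haemoglobin took 2.76%, 7.96% and 6.85% of T cell UMIs. Each class held its own markers and little of the others, as the gates require: B cell markers summed to between 5523 and 5793 CPM in B cells and at most 69.1 elsewhere, and T cell markers to between 2403 and 2568 in T cells and at most 38.4 elsewhere. Plasma cell markers in the B class summed to 371, 1290 and 1084 CPM in young, aged and aged-GA mice, with Jchain at 41.5, 737 and 613. The part of plasma cells in the B cell values was not tested. Neutrophils, which a mononuclear preparation should mostly lose, remained in the old libraries. Levels are CPM, UMIs of the gene per 1000000 UMIs of the same cells, and their intervals, like those of the ratios, are 95% counting intervals that say nothing of variation between mice.

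Taken over the classes, Ddit4 and Tsc22d3 were more than 2-fold lower in aged than in young cells in B, T, NK and myeloid cells alike. Txnip was so in the 3 lymphocyte classes, though in B cells by little (2.02-fold) and short of 2-fold under 6 of 14 alternatives, the value nearest 0 being -0.74, Sgk1 in B and myeloid cells, and Fkbp5 in myeloid cells only, while Per1, Klf9 and Nr3c1 passed 2-fold in none. In nonclassical monocytes, to which most young myeloid cells belonged, the genes past 2-fold lower were Tsc22d3, Fkbp5 and Txnip (-1.33). Ddit4 (-0.68) and Sgk1 (-0.62) fell short of it there. Of 32 pairs of gene and class, 14 were past 2-fold lower and 0 past 2-fold higher. By class, 4 of 8 genes were past 2-fold lower in B cells, where 1.1% of all 8919 genes with at least 100 UMIs were. Those counts were 3 of 8 in T cells (1.48% of 9351 genes), 3 of 8 in NK cells (1.1% of 3007) and 4 of 8 in myeloid cells (5.43% of 7766). Past 2-fold higher stood 0 of 8 in each class, with 4.17% of all genes in B, 8.82% in T, 1.46% in NK and 11.7% in myeloid cells. Because this contrast chose the set, nothing is read from these shares. The median log2 ratio of the 8 genes was -0.77 in B, -0.23 in T, -0.52 in NK and -1.13 in myeloid cells, beside 0.18, 0.31, -0.01 and 0.01 over all genes. The shift of all genes in B and T cells adds that much to each fall measured against other genes, and it turns the higher Fkbp5 of aged T cells into -0.038.

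**Figure D1:**
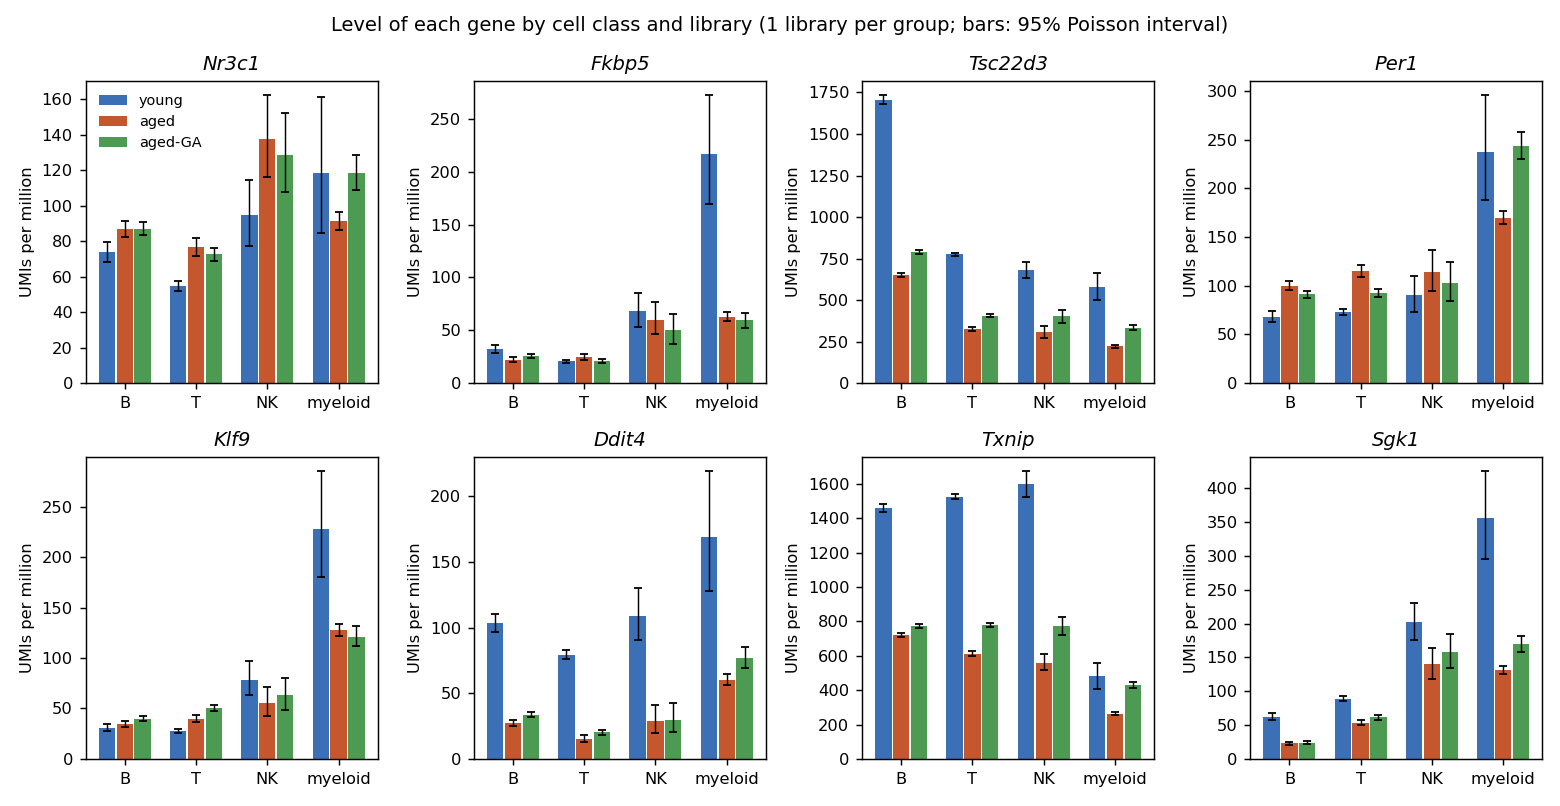
CPM of each gene (vertical axes, linear from 0) in B, T, NK and myeloid cells of the young, aged and aged-GA libraries, 1 library a group, with 95% Poisson intervals. The young bars stand highest in every class for Tsc22d3, Ddit4, Txnip and Sgk1, whereas Per1 and Nr3c1 stand lowest in young B and T cells.

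The receptor gene itself was not lower in aged lymphocytes. Nr3c1, at chr18:39410545-39519421, was at 73.7, 86.7 and 87.1 CPM in B cells of young, aged and aged-GA mice, and at 54.7, 76.8 and 72.5 in T cells. NK cells held 94.7, 138 and 129 and myeloid cells 119, 91.4 and 118, the young myeloid value resting on 40 UMIs. Aged values lay above young in the 3 lymphocyte classes. Log2 ratios were 0.23 (0.10 to 0.37) in B, 0.49 (0.37 to 0.61) in T and 0.54 (0.17 to 0.92) in NK cells. Medians over all genes were 0.18, 0.31 and -0.01 in the same order. Naive T cells gave 0.36 (0.10 to 0.62) and memory T cells -0.17 (-0.51 to 0.18). In myeloid cells the ratio was -0.38 and its interval, -0.83 to 0.12, held 0. Aged-GA over aged, the intervals held 0 in B (0.01, -0.09 to 0.10) and T cells (-0.08, -0.20 to 0.04), and myeloid cells gave 0.37 (0.23 to 0.52). In young mice the classes ran from myeloid through NK and B to T cells, and the intervals of NK cells overlapped those of both neighbours, while T cells stood below the rest.

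Genes of the proteins that hold and modify the receptor did not pass 2-fold in lymphocytes either. Of 15 genes of the receptor and its machinery, a list that includes Nr3c1 and Fkbp5, 13 could be compared in B and T cells and 10 in NK cells, aged over young, and 0 stood past it in either direction. The largest ratios were -0.73 for the chaperone Hspa8 in B cells and -0.97 for the co-chaperone Ptges3 in NK cells. In T cells the largest was 0.73, for Hsd11b1, the enzyme that regenerates active glucocorticoid, whose levels were 28.7, 47.4 and 48.6 CPM in young, aged and aged-GA mice. In myeloid cells 2 of 13 were past 2-fold lower, Fkbp5 and Fkbp4, both immunophilins of the receptor complex, where 5.43% of all genes were. Medians of the list were -0.32 in B, 0.18 in T, -0.47 in NK and -0.45 in myeloid cells. Those over all genes were 0.18, 0.31, -0.01 and 0.01. Between aged-GA and aged mice none of the list passed 2-fold in any class, the largest being 0.79 for Hsd11b1 in B cells (99 UMIs in aged and 266 in aged-GA).

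Fkbp5, a standard reporter of receptor activity, divided the classes. At chr17:28399094-28517527, it was at 216, 62.8 and 59.3 CPM in young, aged and aged-GA myeloid cells, from 73, 881 and 284 UMIs. B cells held 32.2, 22.4 and 25.5, T cells 20.6, 24.8 and 20.9, and NK cells 67.9, 60.3 and 49.9. Young myeloid cells stood apart from all other values. The log2 ratio of aged over young was -1.78 (-2.13 to -1.42) in myeloid cells, where 5.43% of genes passed 2-fold lower, and -0.53 (-0.75 to -0.30) in B cells. In T cells it was 0.27 (0.06 to 0.48) and in NK cells -0.17 (-0.68 to 0.33). The fall in myeloid cells was as large among nonclassical monocytes alone, the one subset that each library held in number, at 267, 72.8 and 77.2 CPM and a log2 ratio of -1.88 (-2.32 to -1.42). Among naive T cells the direction turned, to -0.63 (-1.21 to -0.11).

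Tsc22d3, on the minus strand of chrX:140539528-140600659, was highest in B cells. Young, aged and aged-GA B cells held 1705, 649 and 789 CPM, from 15661, 11249 and 21178 UMIs. T cells held 776, 325 and 405, NK cells 679, 307 and 402, and myeloid cells 578, 222 and 333. In each class the young library was highest, the aged library lowest and no counting intervals overlapped between them. Aged cells held 2.63-fold less in B, 2.39-fold less in T, 2.21-fold less in NK and 2.61-fold less in myeloid cells. The log2 ratio of aged-GA over aged was 0.28 (0.25 to 0.31) in B, 0.32 (0.26 to 0.37) in T, 0.39 (0.18 to 0.60) in NK and 0.59 (0.50 to 0.68) in myeloid cells. B cells held more than any other class in all 3 libraries, and in young mice the intervals of NK and myeloid cells overlapped. Memory T cells were the exception in size: their levels of 368.5, 288 and 348 gave a log2 ratio of -0.36 (-0.55 to -0.16) between aged and young, against -1.26 (-1.36 to -1.15) in naive T cells.

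The transcription regulators of the set moved otherwise. Per1, a core repressor of the circadian clock at chr11:69095217-69109960, was at 68.4, 99.8 and 91.1 CPM in young, aged and aged-GA B cells and at 73.1, 115 and 92.2 in T cells. It was at 90.3, 114 and 103 in NK cells and at 237, 169.7 and 244 in myeloid cells. Young B and T cells were thus lowest and aged ones highest, while in myeloid cells the aged library was lowest. The log2 ratio of aged over young was 0.55 (0.41 to 0.68) in B and 0.65 (0.55 to 0.75) in T cells. NK cells gave 0.33 with an interval that held 0, and myeloid cells gave -0.48 (-0.80 to -0.14). Aged-GA over aged was -0.13 (-0.22 to -0.04) in B, -0.32 (-0.42 to -0.22) in T and 0.52 (0.42 to 0.62) in myeloid cells. Myeloid cells held the most Per1 in each library. Within nonclassical monocytes neither interval excluded 0, with levels of 190.2, 166 and 148 in young, aged and aged-GA mice.

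Klf9, a zinc finger repressor induced by the receptor in many tissues, lies at chr19:23141226-23168134. Its levels were 31.1, 34.7 and 39.7 CPM in young, aged and aged-GA B cells, 27.9, 39.8 and 50.7 in T cells, 78.7, 55.5 and 63.3 in NK cells and 228, 128 and 121 in myeloid cells. T cells stepped up from young to aged to aged-GA with intervals that did not overlap, and myeloid cells of the young library stood above both others. Aged over young, the log2 ratio was 0.51 (0.34 to 0.68) in T and -0.84 (-1.17 to -0.49) in myeloid cells. It was 0.16 (-0.05 to 0.36) in B and -0.50 (-1.01 to -0.01) in NK cells. Aged-GA over aged, T cells differed by 0.35 (0.19 to 0.51) and B cells by 0.19 (0.05 to 0.34). Memory T cells gave the largest value of this comparison for Klf9, at 40.7, 34.0 and 53.9 CPM and a log2 ratio of 0.66 (0.30 to 1.04).

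Ddit4 encodes REDD1, which restrains the growth kinase complex mTORC1, and is a compact gene at chr10:59949669-59951834. Young, aged and aged-GA T cells held 79.3, 15.4 and 20.1 CPM, from 2301, 173 and 445 UMIs. B cells held 103, 27.4 and 33.8, NK cells 109, 28.7 and 29.7 (122, 30 and 31 UMIs) and myeloid cells 169, 60.2 and 76.7. The young library lay above both others in every class, with no overlap of intervals. Aged cells held 5.14-fold less in T, 3.77-fold less in B, 3.80-fold less in NK and 2.81-fold less in myeloid cells. The log2 ratios were -2.36 (-2.59 to -2.14), -1.92 (-2.08 to -1.76), -1.93 (-2.55 to -1.34) and -1.49 (-1.88 to -1.08). Over 14 other ways of filtering, gating and scaling the value in T cells ran from -2.67 to -1.70, and in B cells from -2.10 to -1.60.

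Ddit4 was also lower in aged cells of narrower T cell gates, and less so in nonclassical monocytes. CD4 T cells held 91.4, 19.4 and 29.8 CPM in young, aged and aged-GA mice and CD8 T cells 62.9, 10.8 and 11.4. Naive T cells, 3072, 473 and 601 in number, held 88.1, 27.1 and 33.4. Their log2 ratio of aged over young was -1.70 (-2.10 to -1.33), smaller in size than the -2.36 of all T cells. Memory T cells, 144 in young and 565 in aged mice, gave -1.77 (-2.50 to -1.05). That value rests on 36 and 33 UMIs, fewer than the 100 required for a call. The part of T cell make-up in the class value was not tested. Nonclassical monocytes held 236, 147 and 175, a log2 ratio of -0.68 (-1.11 to -0.23) between aged and young that does not reach 2-fold. Classical monocytes, nearly absent from the young library, were not compared with it. Counting members past 2-fold lower, aged over young, gave 4 of 8 in CD4 (1.28% of all genes), 2 of 8 in CD8 (1.12%), 3 of 8 in naive T cells (1.24%), 2 of 7 in memory T cells (1.71%) and 3 of 8 in nonclassical monocytes (1.41%). Past 2-fold higher stood 0 in each, against 8.01%, 6.45%, 4.49%, 6.73% and 3.86% of all genes in the same order. In neutrophils Ddit4 had 0 UMIs among the 12 young cells, where 3 UMIs would be 54.0 CPM, and 19.0 and 18.7 CPM in aged and aged-GA cells. Aged-GA over aged, the log2 ratio was 0.30 (0.14 to 0.47) in B, 0.39 (0.13 to 0.65) in T and 0.35 (0.17 to 0.53) in myeloid cells. The myeloid value was -0.10 among cells with 3000 to 6000 UMIs. NK cells had fewer than 100 UMIs of Ddit4 over those libraries and gave 0.05 (-0.72 to 0.83).

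**Figure D2:**
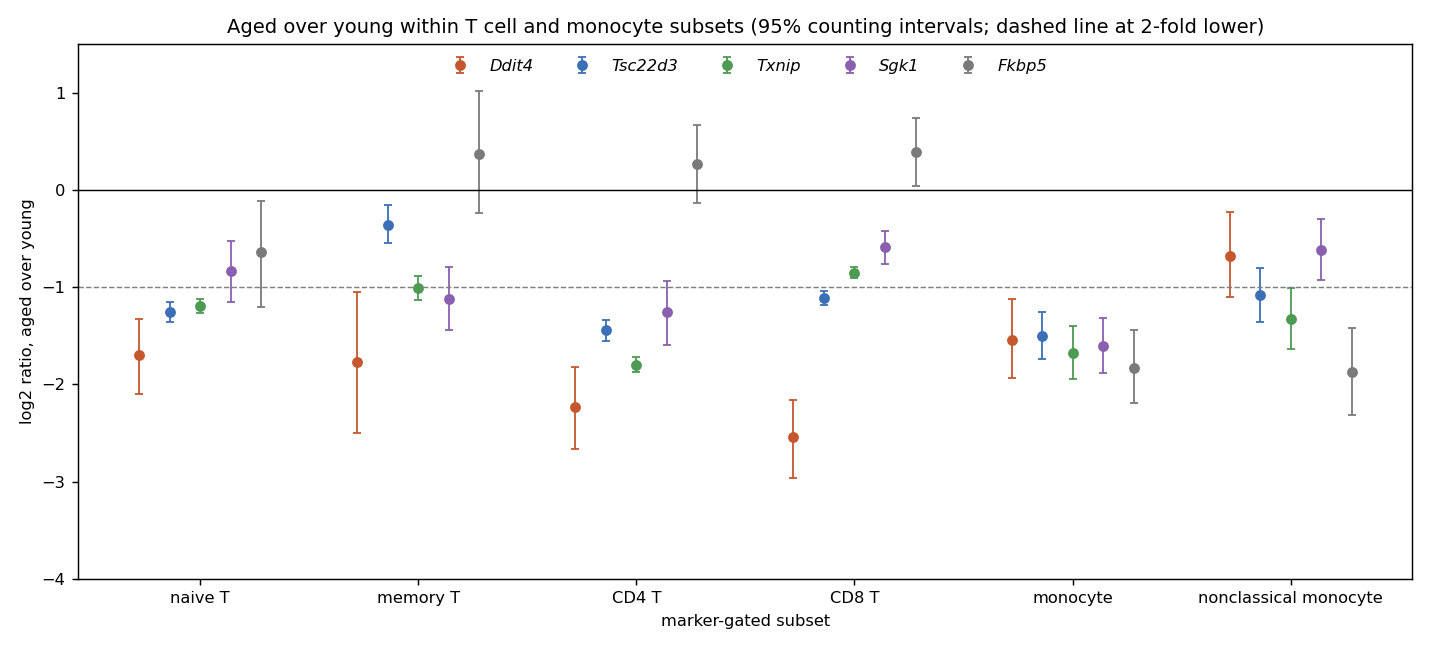
Log2 ratio of aged over young (vertical axis) for Ddit4, Tsc22d3, Txnip, Sgk1 and Fkbp5 in marker-gated T cell and monocyte subsets, with 95% counting intervals and a dashed line at 2-fold lower. Ddit4 lies at -1.70 in naive, -2.23 in CD4 and -2.54 in CD8 T cells but at -0.68 in nonclassical monocytes, where Fkbp5 lies at -1.88.

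Txnip encodes a thioredoxin-binding arrestin that limits glucose uptake, at chr3:96557957-96561883. Its levels were 1461, 722 and 774 CPM in young, aged and aged-GA B cells. T cells held 1526, 611 and 779, NK cells 1599, 560.5 and 773, and myeloid cells 480.4, 262 and 431. In the lymphocytes the aged-GA value stayed nearer to aged than to young, and in myeloid cells nearer to young. Aged over young, the log2 ratio was -1.02 (-1.05 to -0.98) in B, -1.32 (-1.36 to -1.28) in T and -1.51 (-1.65 to -1.38) in NK cells. The myeloid value of -0.87 (-1.10 to -0.64) joined unlike cells: monocytes were at 442, 138 and 190.2 CPM, a ratio of -1.68, and neutrophils at 612, 682 and 730.2, a ratio of 0.15 (-0.33 to 0.69). Aged-GA over aged, the ratio was 0.10 (0.07 to 0.13) in B, 0.35 (0.31 to 0.39) in T, 0.46 (0.31 to 0.62) in NK and 0.71 (0.64 to 0.79) in myeloid cells. In monocytes it was 0.46 (0.31 to 0.61) and in neutrophils 0.10 (0.00 to 0.20).

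Sgk1, a kinase of sodium transport and FOXO regulation at chr10:21882184-21999903, carried the full receptor element shown above before 1 of its 6 starts. Counts of 3′ ends do not tell which start was used, and a link of the element to the levels was not tested. Sgk1 was at 61.9, 22.8 and 24.2 CPM in young, aged and aged-GA B cells and at 88.9, 53.7 and 61.3 in T cells. NK cells held 202, 140 and 158 and myeloid cells 356, 132 and 170.1. Each class was highest in young mice, and the order from B to T to NK to myeloid was that of young mice without overlap of intervals. Aged over young, the log2 ratio was -1.44 (-1.63 to -1.25) in B, -0.73 (-0.86 to -0.60) in T, -0.53 (-0.84 to -0.23) in NK and -1.44 (-1.70 to -1.16) in myeloid cells. In nonclassical monocytes it was -0.62 (-0.92 to -0.30), short of 2-fold. Aged-GA over aged, myeloid cells differed by 0.37 (0.25 to 0.49) and T cells by 0.19 (0.05 to 0.33). In naive T cells the latter value was -0.26 (-0.66 to 0.15).

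The comparison of aged-GA with aged mice asks what 1 month of glycyrrhizic acid went with, and it was not used to choose the set, though it shares the aged library with the other contrast. Of the members, 0 of 31 passed 2-fold in either direction. The shares of all genes past 2-fold higher were 0.134% in B, 0.182% in T, 0.0666% in NK and 1.94% in myeloid cells, and past 2-fold lower 0.339%, 0.364%, 0.333% and 1.52%. Of 31 pairs with at least 100 UMIs, 18 had a counting interval wholly above 0 and 3 wholly below. By class the interval lay above 0 for 5 of 8 genes in B cells, where it did for 17.4% of all genes, 5 of 8 in T cells (11%), 2 of 7 in NK cells (10.2%) and 6 of 8 in myeloid cells (21.4%). It lay below 0 for Per1 in B cells (18.9% of all genes) and for Per1 and Fkbp5 in T cells (23.2%), and for 0 members in NK (8.46%) and myeloid cells (24.5%). The myeloid class differed in make-up here too: neutrophils were 876 of 2174 cells in aged and 557 of 916 in aged-GA mice, classical monocytes 449 and 77, and platelet markers summed to 88.0 and 281 CPM. Within monocytes Ddit4 was at 0.83 (0.63 to 1.02) and Per1 at 0.22 (0.06 to 0.39), and within neutrophils Ddit4 was at -0.02 (-0.65 to 0.59) and Per1 at 0.28 (0.13 to 0.43). Monocytes changed in make-up as well, with nonclassical cells 433 of 1247 in aged and 161 of 326 in aged-GA mice. Ddit4 was at 0.19 in classical and 0.25 in nonclassical monocytes, both below the value of all monocytes. Median log2 ratios of the members were 0.14 in B, 0.25 in T, 0.18 in NK and 0.37 in myeloid cells, beside -0.01, -0.06, 0.03 and -0.04 over all genes. Tsc22d3 and Txnip were higher in aged-GA cells of all 4 classes by intervals that excluded 0, although Txnip in B cells gave -0.073 among cells with 2.5 to 4.5% mitochondrial UMIs. Their values in the aged library, which both contrasts share, were the lowest of the 3 in each class.

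**Figure D3:**
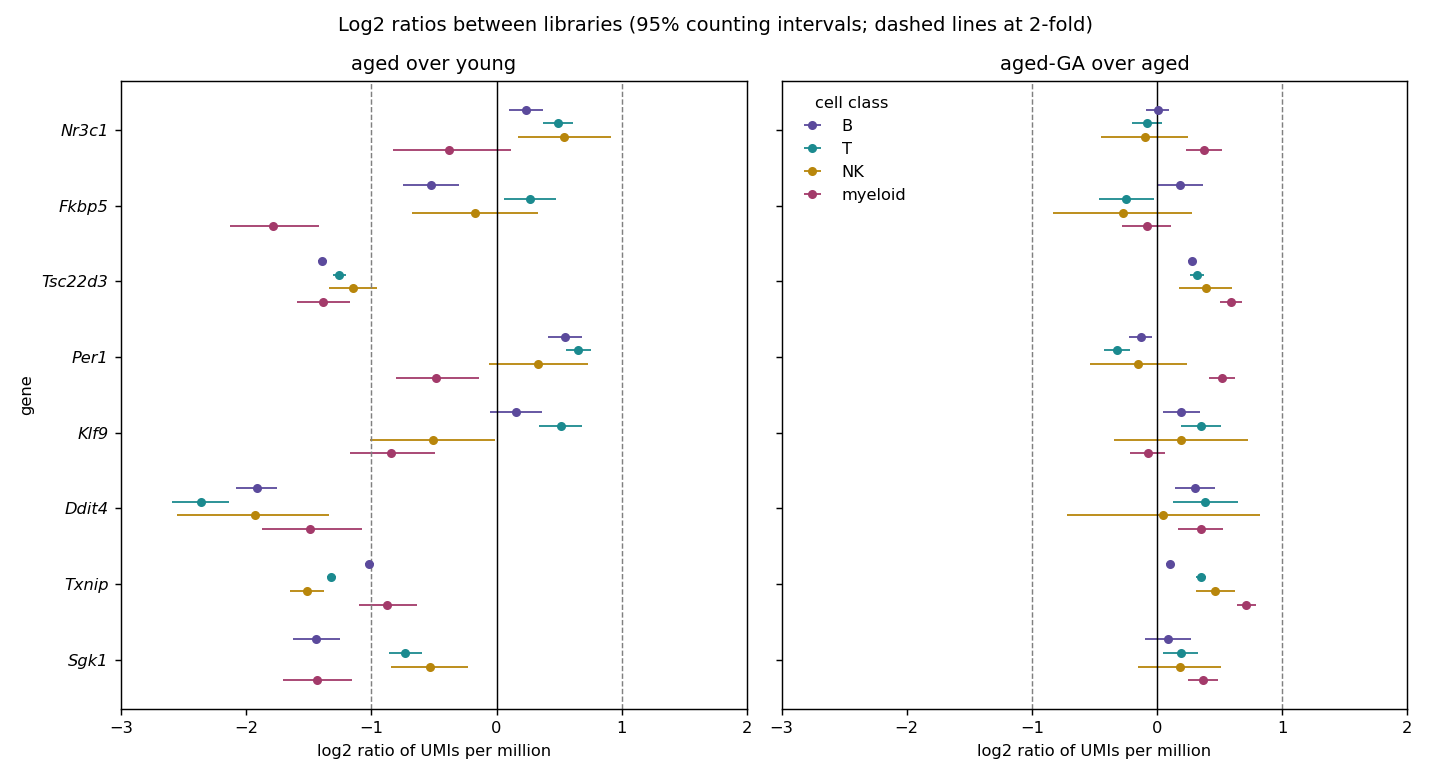
Log2 ratios of CPM (horizontal axes) of the 8 genes for aged over young (left) and aged-GA over aged (right), with points for the 4 cell classes, 95% counting intervals and dashed lines at 2-fold. On the left Ddit4 and Tsc22d3 lie below -1 in each class and Per1 lies above 0 in B and T cells, and on the right no point reaches 1 or -1.

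The share of cells that held a member was taken at equal depth. Each cell was thinned to 1000 UMIs, because median depths differed, at 5049, 4690.5 and 5914 UMIs for T cells of young, aged and aged-GA mice. Ddit4 was then found in 7.86% (7.15 to 8.62, exact binomial) of young T cells, against 1.83% (1.30 to 2.49) of aged and 2.23% (1.76 to 2.78) of aged-GA T cells. In B cells the shares were 9.82%, 2.80% and 4.23%, and without thinning 28.3%, 9.41% and 13.2%. Tsc22d3 was found in 79.4%, 47.6% and 54.4% of B cells after thinning, and Txnip in 71.4%, 43.0% and 48.5% of T cells. Of the 32 pairs the aged share lay below the young one without overlap of intervals in 15 and above it in 5, where over all genes in the same classes the shares of pairs were 4.07% and 15.3%. The aged-GA share lay above the aged one in 6 of the 32 and below it in 2, against 2.74% and 4.41% over all genes. As a measure of free RNA, barcodes with fewer than 200 genes and over 50% haemoglobin, which are red cells, were thinned alike. Ddit4 was found in at most 0.109% of them, Tsc22d3 in at most 1.97% and Txnip in at most 1.73%, with median depths of 8636, 4955 and 5387 UMIs in young, aged and aged-GA mice. Those barcodes are mostly haemoglobin. Of their other UMIs, Ddit4 made up 5.29, 10.4 and 18.1 CPM in young, aged and aged-GA mice, from 2, 12 and 17 UMIs and with intervals that overlapped. Tsc22d3 made up 87.3, 179 and 324 CPM in the same order, from 33, 206 and 305 UMIs. The part of free RNA in the levels of the members was not tested.

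**Figure D4:**
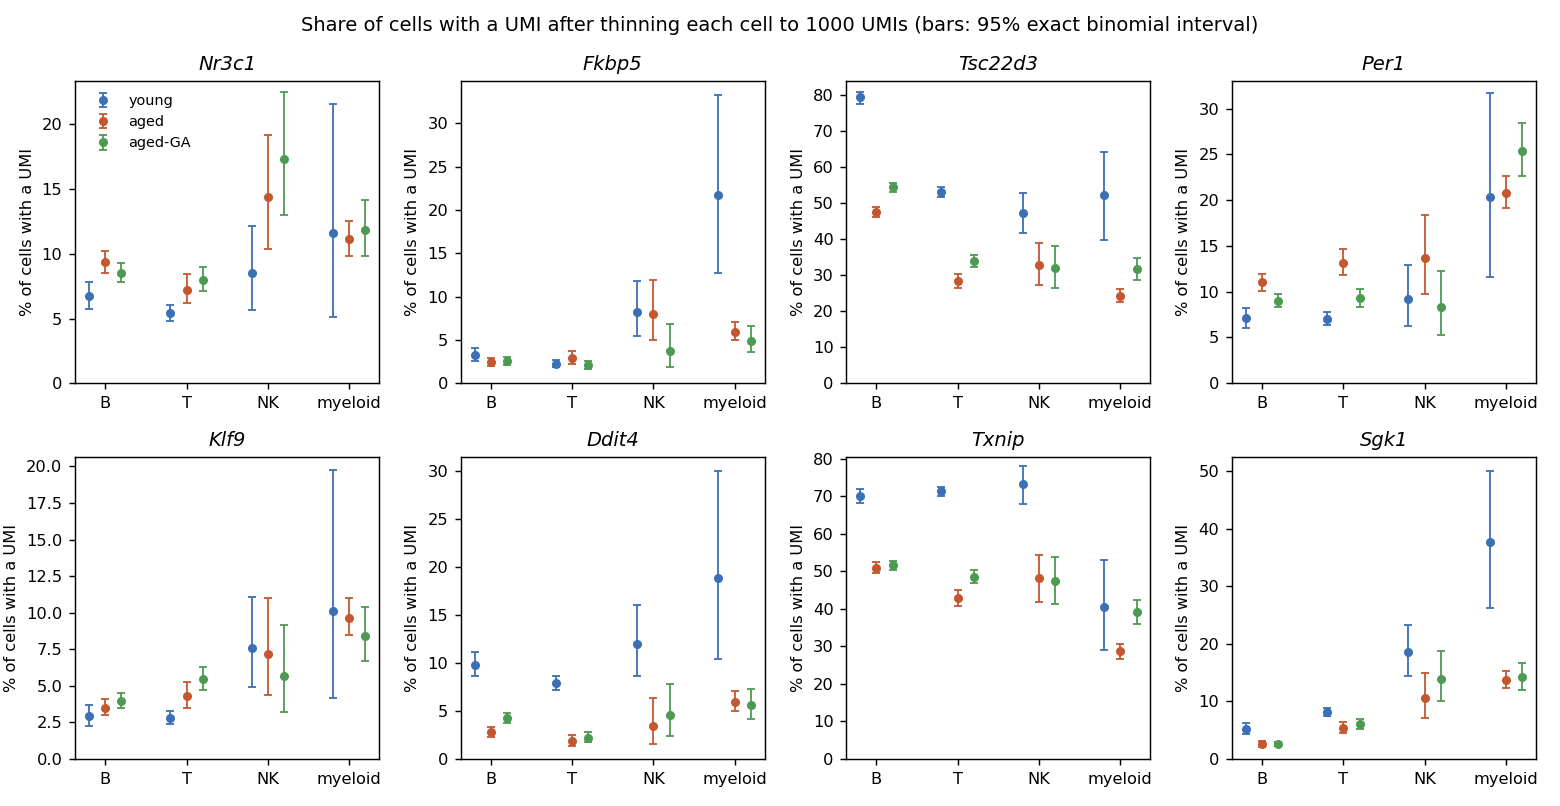
Share of cells with at least 1 UMI of each gene (vertical axes, %) in the 4 classes of each library after thinning every cell to 1000 UMIs, with 95% exact binomial intervals. Ddit4 lies at 9.82% in young and 2.80% in aged B cells, while Per1 lies at 7.07% in young and 13.2% in aged T cells.

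Other genes that glucocorticoids induce were lower in aged cells in part. Of 25 such genes, 20 could be compared in B cells, and 5 were past 2-fold lower, aged over young: Errfi1, an inhibitor of EGF receptor signalling, Tsc22d1 (-1.85), the MAP kinase phosphatase Dusp1 (-1.53), the sestrin Sesn1 (-1.09) and the interleukin 7 receptor Il7r. Their list had a median of -0.63 beside 0.18 over all genes. In T cells 1 of 19 was lower, Pik3ip1 (-1.08), and 1 higher, the annexin Anxa1 (3.21), whose level there was 1.28, 11.8 and 6.79 CPM. Of the genes of the list that could be compared, 0 of 17 in naive and 0 of 14 in memory T cells were past 2-fold higher. Memory cells were 144 of 5289 T cells in young and 565 of 2134 in aged mice. NK cells had 2 of 13 lower, Socs1 (-1.57) and Sesn1 (-1.37), and myeloid cells 4 of 21 lower and 2 higher. Of all genes, 1.1% were past 2-fold lower in B, 1.48% in T, 1.1% in NK and 5.43% in myeloid cells. Past 2-fold higher were 8.82% in T and 11.7% in myeloid cells. In the aged-GA library the metallothionein Mt1 was past 2-fold lower than in aged mice in B (-1.51), T (-1.56) and myeloid cells (-1.91), and Mt2 in B cells (-1.75). Metallothioneins answer to metal ions as well as to glucocorticoids. Mt1 levels in B cells were 30.9, 23.3 and 8.16 CPM in young, aged and aged-GA mice. Aged-GA over aged, 4 of 22 genes of the list were past 2-fold higher in myeloid cells, where 1.94% of all genes were. These were Tsc22d1 (1.86), Pik3ip1 (1.39), Per2 (1.37) and Il1r2, and the list median was 0.61 beside -0.04 over all genes. Within monocytes 2 of 20 were past 2-fold higher (0.915% of all genes), and within neutrophils 1 of 17, Tsc22d1 (0.673%).

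Genes that answer to glucose and to FOXO factors were past 2-fold lower in part. Their list of 8 includes Txnip, and it shares Sesn1 and Pik3ip1 with the list of induced genes above. In B cells 4 of 7 were past 2-fold lower in aged than in young mice, with the arrestin Arrdc3 at -1.28 and the coactivator Cited2 at -1.02. The lower genes were 3 of 8 in T cells, with Cited2 at -1.03, and 3 of 5 in NK cells, with Cited2 at -1.15. Cited2 was at 261, 127 and 145 CPM in T cells of young, aged and aged-GA mice, with the young library highest. Medians of the list were -1.02 in B, -0.75 in T and -1.15 in NK cells, beside 0.18, 0.31 and -0.01 over all genes. In myeloid cells 3 of 7 were lower and 1 higher. Over all genes the shares past 2-fold lower were 1.1% in B, 1.48% in T, 1.1% in NK and 5.43% in myeloid cells. Those past 2-fold higher were 8.82% in T and 11.7% in myeloid cells. Aged-GA over aged, none passed 2-fold in lymphocytes, and Pik3ip1 did in myeloid cells (1.39), where 1.94% of all genes were past 2-fold higher. Of the genes of the list that could be compared, 0 of 7 within monocytes and 0 of 6 within neutrophils passed 2-fold. The list of 9 genes of the ATF4 stress response, which also drives Ddit4, had 4 that could be compared in B and T cells, Ddit4 among them. Of these Ddit4 alone was past 2-fold lower, Atf4 itself being at -0.54 in B and -0.17 in T cells, and Atf3 was past 2-fold higher in T cells (2.08). Medians of the 4 were -0.52 in B and -0.02 in T cells, beside 0.18 and 0.31 over all genes. The part of ATF4 in the levels of Ddit4 was not tested.

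Clock genes, a list that includes Per1, were read because the hour of blood collection was not given in the sources used here. Of 18 genes, 12 could be compared in B cells and 11 in T cells. In B cells 1 was past 2-fold higher in aged than in young mice, Per3 (1.24, from 22 UMIs in young and 98 in aged). T cells had 3 higher, Bhlhe40 (2.39), Rora (1.84) and Nr1d2 (1.16), and 1 lower, Ciart (-1.04). Myeloid cells had 0 of 7 higher and 3 lower, Bhlhe40 (-2.04), Tef (-1.67) and Cry2 (-1.38). Nonclassical monocytes, 47 of the 69 young myeloid cells and 433 of 2174 aged ones, had 0 of 3 past 2-fold either way. Bhlhe40 was at -0.54 there, and Tef and Cry2 had too few UMIs to be compared. In that subset 1.41% of all genes were past 2-fold lower and 3.86% higher. Past 2-fold higher stood 4.17% of all genes in B, 8.82% in T and 11.7% in myeloid cells. Past 2-fold lower stood 1.48% in T and 5.43% in myeloid cells. Medians over the genes compared in each class were 0.38 in B, 0.65 in T, 0.26 in NK and -0.48 in myeloid cells, beside 0.18, 0.31, -0.01 and 0.01 over all genes. The T class also changed in make-up, with 144 of 5289 cells gated as memory cells in young and 565 of 2134 in aged mice. Among memory T cells Bhlhe40 was at -0.38 (-0.63 to -0.11) and Rora at -0.86 (-1.06 to -0.66), aged over young, opposite to the whole class, while among naive T cells Rora was at 2.23 (1.83 to 2.62). The part that the hour of collection had in these values was not tested and cannot be told apart from the library.

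Immediate early and heat shock genes, which change with handling, differed between the classes. In B cells 4 of 11 were past 2-fold lower, aged over young, Hspa1b (-2.62), Dusp1 (-1.53), Junb (-1.42) and Ier2 (-1.07), and 0 were higher. T cells had 1 of 11 lower, Hspa1b (-1.19), and 2 higher, Atf3 (2.08) and Nr4a1 (1.27). NK cells had 0 of 8 either way, and myeloid cells had 0 of 11 lower and 2 higher, Egr1 (1.87) and Atf3 (1.83). Nonclassical monocytes had 0 of 10 past 2-fold either way, with Atf3 at 0.53 (1.41% of all genes lower, 3.86% higher). Neutrophils, 12 cells in young and 876 in aged mice, had 5 of 10 higher (19.1% of all genes), with Atf3 at 3.53 and Egr1 at 2.92. Over all genes 1.1% were past 2-fold lower in B, 1.48% in T, 1.1% in NK and 5.43% in myeloid cells. Past 2-fold higher they were 4.17%, 8.82%, 1.46% and 11.7% in the same order. The list medians were -0.73 in B, -0.23 in T, -0.45 in NK and -0.13 in myeloid cells. The part of handling in the levels of the members was not tested. Cells with 2.5 to 4.5% mitochondrial UMIs alone gave 15 of the pairs past 2-fold lower in place of 14. Median shares of myeloid cells lay below that range in each library, at 2.33%, 1.44% and 1.18%, young first and aged-GA last. Those of neutrophils were lower still, at 0.488%, 0.339% and 0.586% by the same order. The range thus also changes which myeloid cells are counted, and the count of 15 was not a test of handling.

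Genes that glucocorticoids repress were higher in aged B and T cells, where myeloid RNA was also higher. In T cells 6 of 8 were past 2-fold higher, aged over young, among them the chemokine Ccl4 (5.63, at 2.69, 134 and 34.9 CPM), Il1b (5.78, from 6 UMIs in young and 127 in aged) and Ifng (3.19), while Tnf was lower. Among memory T cells, a larger share of T cells in aged mice as given above, Ifng was at 0.58 (0.11 to 1.07) and Ccl4 at 2.68 (2.15 to 3.26). In B cells 5 of 5 were higher, and in NK cells 1 of 4, Ccl3 (1.63). Of all genes, 8.82% were past 2-fold higher in T, 4.17% in B and 1.46% in NK cells. Beside this, the summed neutrophil markers Csf3r, Cxcr2, Retnlg, Mmp9 and Clec4d were at 0.551, 23.2 and 10.7 CPM in T cells and at 0.762, 27.2 and 16.8 in B cells of young, aged and aged-GA mice. Neutrophils and monocytes are sources of Il1b and of these chemokines, and the part of their RNA in these lymphocyte values was not tested. In myeloid cells themselves 4 of 8 were higher and Tnf was lower (-3.43), from 55 UMIs in young and 212 in aged mice. There 11.7% of all genes were past 2-fold higher and 5.43% past 2-fold lower. Aged-GA over aged, 3 of 9 were lower in T cells, Ptgs2 (-2.28), Ccl3 (-2.26) and Ccl4 (-1.94). In myeloid cells 4 of 8 were higher, among them Il1b (1.44), and Cxcl10 was lower (-1.11). Of all genes in that comparison, 0.364% were past 2-fold lower in T cells. In myeloid cells 1.94% were past 2-fold higher and 1.52% lower. Neutrophils were 876 of 2174 myeloid cells in aged and 557 of 916 in aged-GA mice. Within neutrophils 0 of 7 passed 2-fold, with Il1b at 0.51 (0.673% of all genes higher, 0.399% lower). Within monocytes 2 of 8 were higher, Il1b (1.03) among them, and Cxcl10 lower (0.915% of all genes higher, 0.771% lower).

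The genes whose levels ran most like Ddit4 were sought among 4386 genes over the 12 pairs of class and library by Pearson correlation of log2 levels. Each of the 4386 had at least 50 CPM in at least 1 of the 12. The genes most like it were Arrdc3 (0.907), the growth arrest gene Gadd45a (0.902), the immediate early gene Ier5 (0.892), the antizyme inhibitor Azin1 (0.890) and Phlda1 (0.876). Phlda1 reached 50 CPM only in young myeloid cells (97.9). Ddit4 was highest in young cells, so the search favoured genes that were too. Arrdc3 was at 49.7, 20.4 and 23.9 CPM in B cells and Gadd45a at 162, 56.4 and 66.9, in the order young, aged and aged-GA. Points of 1 library share its depth and its cells, so the coefficients describe these 12 values and carry no test. Among the members themselves Ddit4 ran with Fkbp5 at 0.62 and with Txnip at 0.17, and Tsc22d3 ran with Txnip at 0.78 and against Per1 at -0.58.

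**Figure D5:**
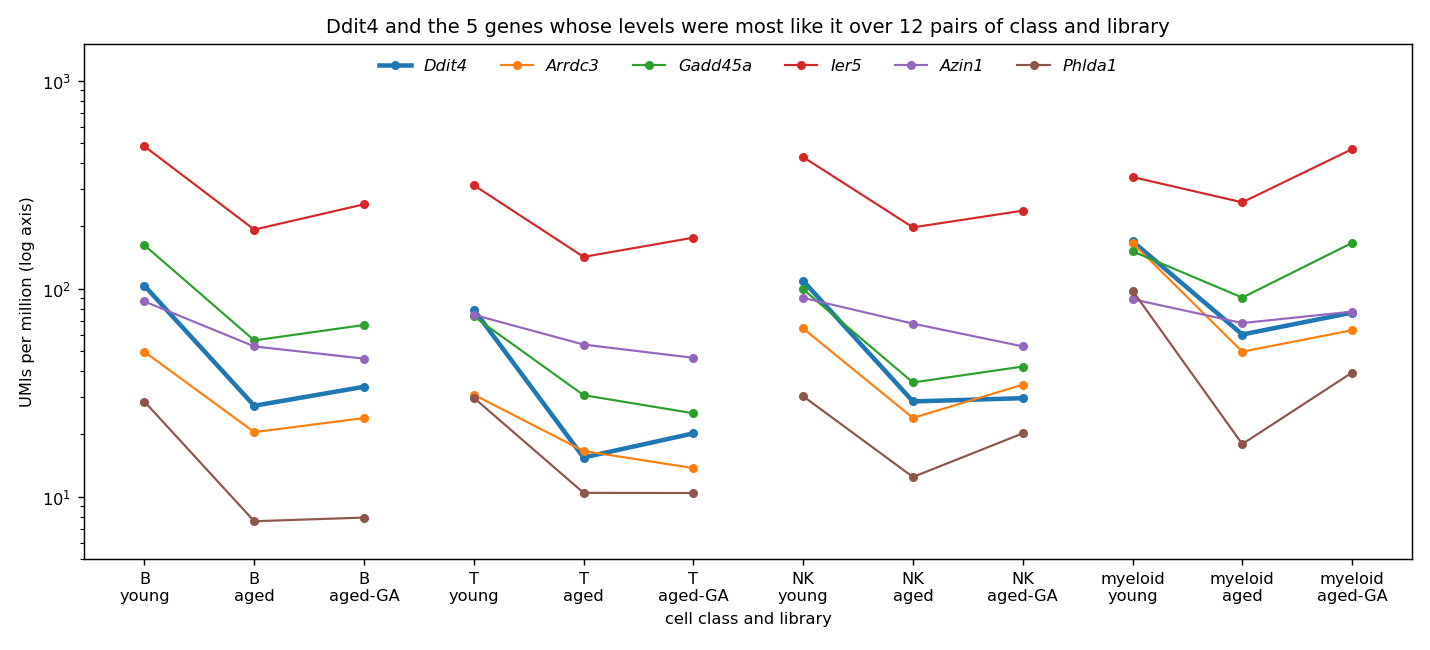
CPM (vertical log axis) of Ddit4 and the 5 genes most like it in the 12 pairs of cell class and library (horizontal axis), 1 line a gene within each class. In B, T and NK cells each of the 6 genes is highest in the young library, as Ddit4 is at 103, 79.3 and 109.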

How the data were processed

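PBMCs of 3 groups of mice were measured by single-cell RNA sequencing with Chromium 3′ version 3 chemistry, 1 library a group. The authors deposited raw UMI counts per gene and barcode, made with Cell Ranger on mm10 per the labels; the matrix headers name version 5.0.0. The cell filters of the study were applied, so that barcodes with under 200 genes, over 7.5% mitochondrial UMIs or a gene number above 90% of the highest in their library were left out. Classes were gated on markers (B, 4 genes; T, 4; NK, 4; monocytes, 6; neutrophils, 5), which removed the 459, 890 and 1332 cells of young, aged and aged-GA mice that held 2 or more markers of 2 classes; no other doublet caller was run. UMIs were summed over the cells of a class, and ratios of CPM (UMIs per 1000000 UMIs) were taken where the pair of libraries held 100 UMIs or more of a gene, with 0 UMIs set to 3. With 1 library a group no test was possible, and calls mean past 2-fold. Intervals (95%) are exact Poisson, exact binomial and, for ratios, exact conditional binomial ones, cover counting error only, and were checked on simulated data. The members and the gene lists were chosen with earlier results of these data known. Named are the 8 members, the markers, the genes of the lists, with values for the 4 largest ratios of a list in a class, and the 5 genes most like Ddit4 by the correlation of log2(CPM + 1). Few barcodes were shared between libraries (52, 62 and 50 by pair). Gene positions are those of GENCODE on GRCm38. Python 3.11.15, numpy 2.4.6, scipy 1.17.1, pandas 2.3.3 and matplotlib 3.10.9 were used. Over the counts of members 15 alternatives were tried, 3 of them added after seeing the data, and 14 of these change single ratios.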

Additional observations from a re-analysis of the deposited data

Results flagged for a closer look

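Per1, Fkbp5 and Klf9 took opposite directions in T and in myeloid cells when aged was set against young mice, each with a counting interval on its own side of 0. Per1 was at 0.65 in T and -0.48 in myeloid cells, a difference of 1.137 on the log2 scale. Fkbp5 was at 0.27 and -1.78, a difference of 2.053, and Klf9 at 0.51 and -0.84, a difference of 1.352. The T cell value of Fkbp5 lay just below the all-gene median of 0.31, and naive T cells gave -0.63. Among nonclassical monocytes Per1 was at -0.20 with an interval that held 0 (-0.66 to 0.30). Klf9 was at -0.66 (-1.05 to -0.24) there. When aged-GA was set against aged mice, Per1 was at 0.52 in myeloid and -0.32 in T cells, 0.8414 apart. Nonclassical monocytes alone gave -0.16 for Per1. Fkbp5 was at 0.19 in B and -0.25 in T cells in that comparison, 0.4315 apart. With 1 library a group none of these differences was tested. The myeloid class of the young library had 69 cells, of which 47 were nonclassical monocytes, and the aged library held more neutrophils and classical monocytes. Neutrophils were 876 of 2174 myeloid cells in aged and 557 of 916 in aged-GA mice.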

How the results depend on the processing

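With 1 library a group no library could be left out, and no interval covers variation between mice. No paired analysis was possible because each group holds 1 library. The number of pairs of gene and class past 2-fold lower, aged over young, was 14 and ran from 12 to 15 over the 14 alternatives that keep 2-fold. A threshold of 1.5-fold gave 17 pairs lower in place of 14 and 1 pair higher in place of 0, and 2 higher in place of 0 for aged-GA over aged. Shares of cells, thinned to 500 or 2000 UMIs in place of 1000, put 12 or 19 of the 32 pairs lower in aged mice in place of 15, against 2.95%, 4.85% and 4.07% of pairs over all genes. Of the single values 835 stayed near the reported one, 125 moved beyond their counting interval, and 12 changed sign from a value whose interval excluded 0. A further 25 changed sign from a value whose interval held 0, 13 of them under settings other than the 3 named next, and they are counted among the 835 and 125. Centring on the median of all genes gave -0.038 for Fkbp5 in T cells, aged over young. The other values among the 12 came from 3 settings chosen after seeing the data, namely narrower sets of cells. In cells with 2.5 to 4.5% mitochondrial UMIs, Fkbp5 in T cells, aged over young, was -0.044, and aged-GA over aged in B cells Klf9 was -0.12, Txnip -0.073 and the median of the members -0.026. In cells with 3000 to 6000 UMIs, aged-GA over aged, Fkbp5 was 0.14 and Sgk1 -0.15 in T cells, and Ddit4 was -0.10 and Nr3c1 -0.021 in myeloid cells. With naive T cells and nonclassical monocytes in place of their classes, Fkbp5 in T cells was -0.63, aged over young, and aged-GA over aged Sgk1 in T cells was -0.26 and Per1 in myeloid cells -0.16. The cause of these changes was not tested. Ddit4, aged over young, stayed below 0 under the 14 alternatives that give a ratio in B, T and myeloid cells (-2.14 to -0.68 in myeloid) and under the 12 that left enough UMIs in NK cells (-2.14 to -1.62). Of the 14 pairs past 2-fold lower, Txnip in B cells fell short under 6 alternatives and Ddit4 and Sgk1 in myeloid and Tsc22d3 in NK cells under 1 each.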
